A study of Mus musculus with 61 samples.

Results

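Translation initiation factors and aminoacyl-tRNA synthetases, the proteins that start and feed protein synthesis, were followed in mouse CD4 T cells over the first 3 days after stimulation, with and without the cytokine IL-27. The genes were chosen by name: platform symbols that begin with Eif and a digit (without Eif2ak2), symbols made of 1 capital letter and ars, and Eprs, Farsa and Farsb. This gave 57 of the 12291 genes measured, 39 with Eif symbols and 18 synthetases. The rule uses names and no measured value, though the families were picked with earlier results of these data known. The brightest of a gene's probe sets, among those assigned to no other gene, stands for it. Of the 57, 56 exceeded the median of their array on 5 or more arrays and were tested. The exception was Eif2s3y, the Y-linked copy of the gamma subunit gene of eIF2, whose mean intensity was 8.0. A further 16 genes of these families, Eif2s1, Eif4g1, Dars and Mars among them, had no probe set assigned to 1 gene and were not analysed here.

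The RNA came from cultures started with naive CD4 T cells of the strain C57BL/6. The cultures are described as set on a path to type 1 regulatory (Tr1) cells, which make IL-10, with no separate description for the ctrl arm. In the IL27 arm, cells were stimulated with antibodies to CD3 and, as the labels write it, to CD8 (1 ug/ml each) in the presence of IL-27 (25 ng/ml). The ctrl arm is taken, from the array titles, as the same stimulation without IL-27, since one culture text that includes IL-27 is attached to every sample. HT_MG-430A arrays covered 18 times between 0.5 and 72 h in both arms. Each arm had 26 arrays, a pair at 8 of the times and a single one at the remaining 10. In each pair, 1 title carries an unexplained suffix d. On a second array type, Mouse430A_2, each arm had 1 array at 4, 16 and 48 h, the ctrl arm 1 more at 0 h, and 2 arrays at 48 h carry the unexplained names GFPP and GFPN. The times carry no unit in the labels and are read as hours.

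Values are MAS5 intensities, compared as differences of log2(intensity + 32), which understate the changes of dim genes. Array medians were 28.0 to 36.6 on HT_MG-430A and 70.7 to 78.9 on Mouse430A_2. Precision is limited by how few arrays each time has. The arrays of one type had nearly the same distribution of values (median coefficient of variation at a given rank 3.28% and 3.94%), so every value is a level relative to the other genes of its array. A change in total mRNA per cell would not appear, and fewer cells of a type and less RNA per cell cannot be told apart in bulk RNA. Nothing states that the arrays of an arm came from separate cultures, so p-values reflect only how far these arrays scatter, which may be technical. Stages are groups of neighbouring times. In comparisons of stages, arrays from different times of a stage stand as replicates, so their spread also includes change between those times. Where both arms had 2 arrays at a time, the standard deviation of such pairs had a median of 0.13 on the log2 scale over the 56 genes, from 0.06 to 0.40 for Eif4e3. Cd3e, Cd3d, Cd3g, Cd4 and Cd28 were above the array median on 52 of 52 arrays. Cd8a was above it on 0 arrays and Cd8b1 on 52, and the summed B-cell and myeloid markers reached 194.9 and 337.2 early, against at most 57.8 and 92.5 from 25 h on.

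One array stood apart. The 12 h ctrl array correlated with its best partner at 0.8709 over all genes tested, while every other array reached at least 0.9766. Relative to the 14 h ctrl array, 19 of the 56 genes (33.9%) were at under 50% of their level on it, against 13.2% of all genes. Kars, for instance, had 115 intensity units on it and 2054 on the 14 h ctrl array. In the IL27 arm, 0 of the 56 genes behaved so between the same times. The comparisons of stages within an arm leave this array out, and the IL-27 effects of the middle window, which use it, are given with and without it.

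A synthetase joins 1 amino acid to its tRNA, and in mammals a part of them sits in a multi-synthetase complex. eIF2 carries the initiator tRNA to the small ribosomal subunit, eIF2B recharges eIF2 with GTP, and kinases that phosphorylate eIF2 slow this recharging under stress. eIF3 organises the small subunit, and the eIF4 group binds the cap of the mRNA, where 4E-BP proteins hold eIF4E back until mTORC1 phosphorylates them. T cells that leave rest grow in size and make much more protein before they divide.

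Most of the genes rose between 0.5-2 h and 4-8 h, the synthetases furthest. In the IL27 arm, 44 of the 56 genes were higher at 4-8 h and 6 lower (median difference 0.67 on the log2 scale), where 60.6% of all 7164 genes tested were called, 33.2% higher and 27.4% lower. In the ctrl arm, 42 were higher and 5 lower (median 0.58), against 59.5% of all genes called, 29.9% higher and 29.6% lower with a median of -0.00. Calls here and below are at an adjusted p under 0.05 from limma, with Benjamini-Hochberg adjustment over all genes tested. Among the 18 synthetases, 17 were higher in each arm, with medians of 1.08 in the IL27 arm and 1.15 in the ctrl arm. The 38 tested genes with Eif symbols are called initiation factors here, though they include the eIF2 kinases and the inhibitors of eIF4E. They had 27 higher and 5 lower in the IL27 arm (median 0.43), and 25 and 5 in the ctrl arm (median 0.39).

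**Figure D1:**
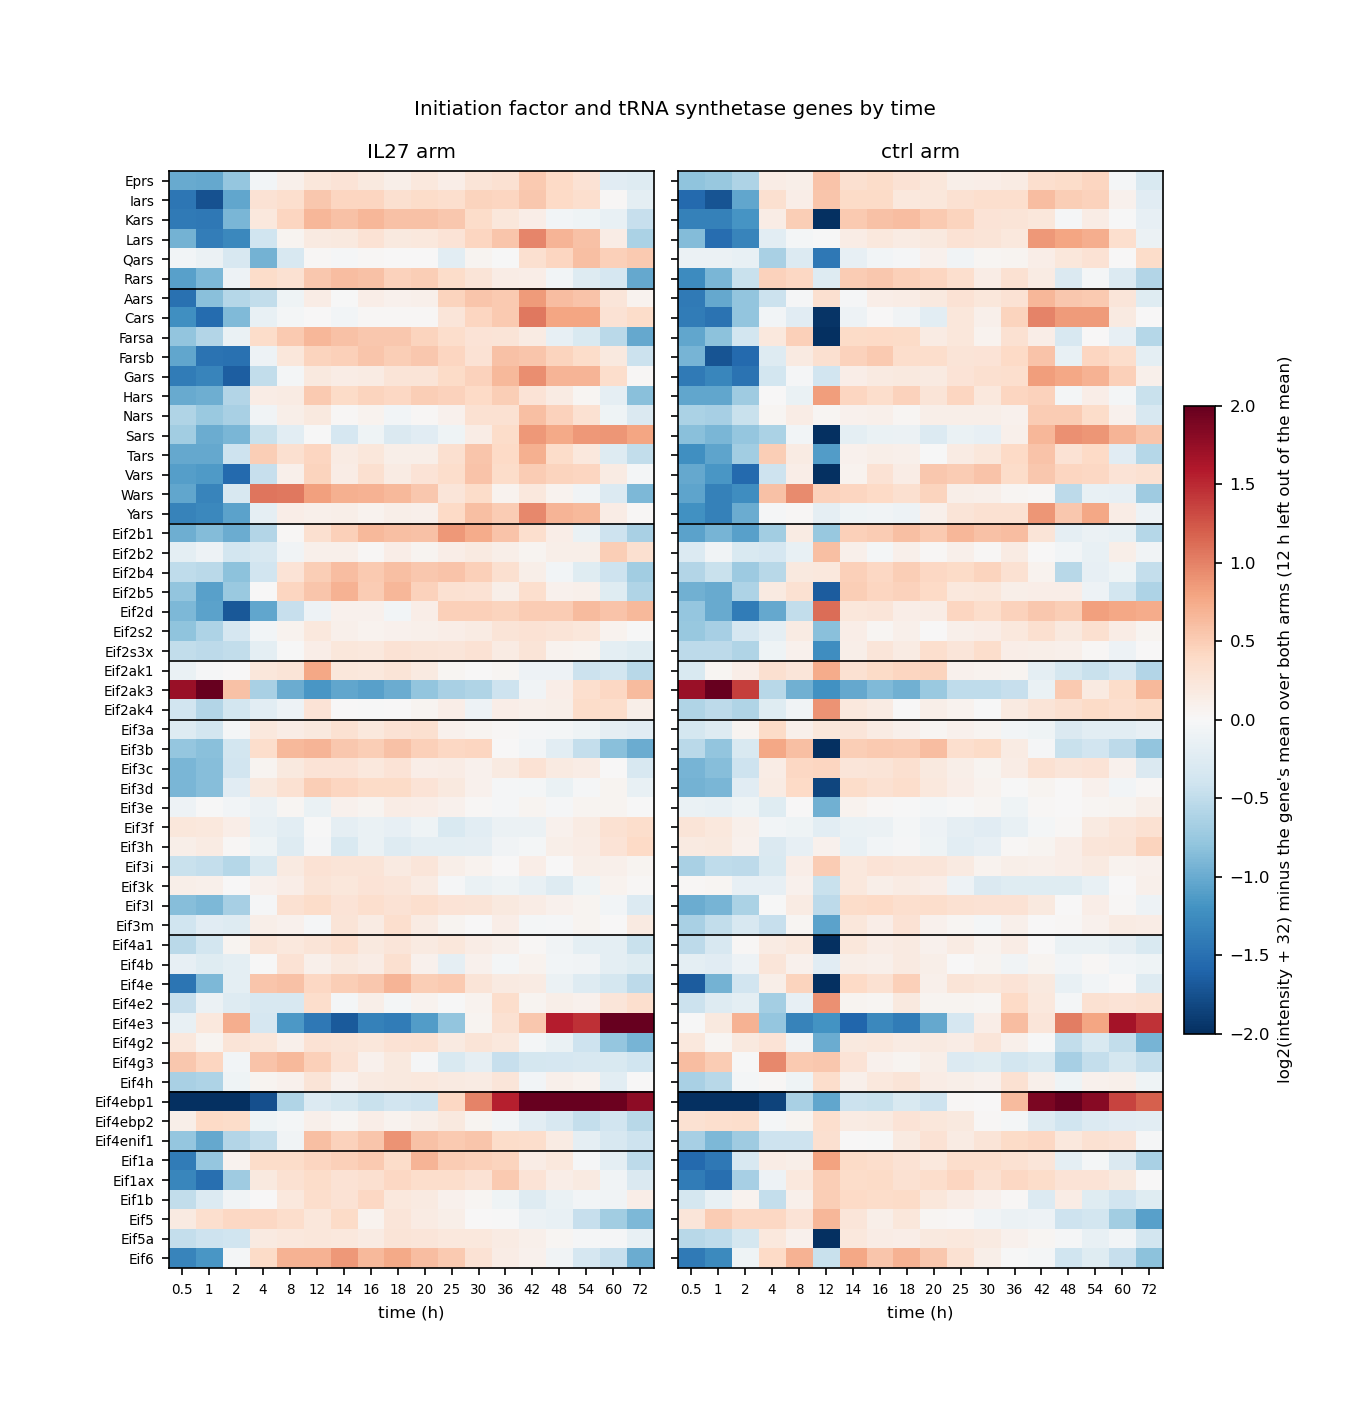
Log2(intensity + 32) of the 56 tested genes, centred on each gene's mean, by time in h, with the IL27 arm in the left panel and the ctrl arm in the right; rows are grouped by role and colours stop at -2 and 2. The column of ctrl at 12 h breaks the smooth course of many rows. Most synthetase rows change from blue at 2 h to near the middle of the colour scale at 8 h, Qars not among them.

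Of the synthetases outside the multi-synthetase complex, 12 of 12 rose in both arms, by 0.59 to 1.81 in the IL27 arm and 0.58 to 2.04 in the ctrl arm. Wars, which charges tRNA with tryptophan and is also known as a gene that interferon induces, had the largest rise. The IL27 arm had 751, 593 and 946 intensity units at 4-8 h, against 151, 118, 234 and 308 at 0.5-2 h. The ctrl arm had 531, 569.9 and 832 at 4-8 h, against 148, 115, 111 and 145 at 0.5-2 h. The stages did not overlap in either arm, and the log2 differences were 1.81 ± 0.19 (SE) in the IL27 arm and 2.04 ± 0.19 in the ctrl arm (limma adjusted p = 2.7e-10 and 1.6e-11). Farsb, the beta subunit of phenylalanyl-tRNA synthetase, had 988, 1359.8 and 1139 units at 4-8 h in the IL27 arm, against 499, 360.0, 342 and 374 at 0.5-2 h. In ctrl cells it had 884, 1305 and 1114 at 4-8 h, against 541, 297, 339 and 336. Each 4-8 h array was above each 0.5-2 h array, with differences of 1.49 and 1.48 (SE 0.17 each, limma adjusted p = 1.1e-09 and 1.2e-09). The smallest rise in the group was that of Sars, for serine, with 0.59 ± 0.12 in the IL27 arm and 0.58 ± 0.12 in the ctrl arm. Beside these, 33.2% of all genes rose in the IL27 arm and 29.9% in the ctrl arm.

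In the multi-synthetase complex, 5 of 6 rose in both arms. Kars, for lysine, had 1647, 1953 and 1898 units at 4-8 h in the IL27 arm, against 515, 505, 619.9 and 872 at 0.5-2 h. The values in the ctrl arm were 1575, 2124 and 1915 at 4-8 h, against 535, 537, 516 and 723. The log2 differences were 1.53 and 1.65 (SE 0.12 each, limma adjusted p = 1.6e-13 and 3.4e-14). Iars, for isoleucine, followed with 1319, 1441 and 1279 units at 4-8 h in the IL27 arm, against 375, 298, 396 and 639.5 at 0.5-2 h, and with 1349.5, 1376 and 1012 in the ctrl arm, against 345, 302, 376 and 679. Its stages did not overlap either, and the differences were 1.63 ± 0.16 and 1.53 ± 0.16. The sixth enzyme, Qars, for glutamine, went the other way: 551, 826 and 892 units at 4-8 h in the IL27 arm, against 1042, 999.5, 921 and 804 at 0.5-2 h. It fell by 0.33 ± 0.12 on the log2 scale there (limma adjusted p = 0.022), but without the 4 h array the difference was -0.12 (limma adjusted p = 0.42). Its difference in the ctrl arm of -0.27 ± 0.12 did not pass (limma adjusted p = 0.057), and the 2 stages overlapped in both arms. The 3 scaffold proteins that hold the complex together, a list of genes outside the families, were higher at 4-8 h in both arms: Eef1e1 by 2.17 in the IL27 arm and 2.23 in the ctrl arm, Aimp2 by 1.60 and 1.65, and Aimp1 by 1.04 and 1.11. Of all genes, 33.2% were higher in the IL27 arm and 29.9% in the ctrl arm.

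Promoter stretches of 4 of the genes that rose are shown because they hold the motifs most often discussed for such genes: the E-box CACGTG, which MYC and other factors bind, and TGATGNAAT, a composite element that C/EBP and ATF4 share. They are RefSeq sequences of GRCm38.p6, plus strand, 5′ to 3′, with both motifs in capitals, on whichever strand they lie. Aars is from chr8:111033672-111033771, Iars from chr13:49682050-49682145, Gars from chr6:55037901-55038000 and Eif4e from chr3:138527168-138527267.
Aars: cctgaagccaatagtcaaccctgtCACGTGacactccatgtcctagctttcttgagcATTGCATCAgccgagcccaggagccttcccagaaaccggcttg
Iars: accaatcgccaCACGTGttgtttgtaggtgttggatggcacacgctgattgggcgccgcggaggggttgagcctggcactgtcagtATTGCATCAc
Gars: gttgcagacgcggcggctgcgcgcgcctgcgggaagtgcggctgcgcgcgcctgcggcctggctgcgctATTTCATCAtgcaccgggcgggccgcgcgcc
Eif4e: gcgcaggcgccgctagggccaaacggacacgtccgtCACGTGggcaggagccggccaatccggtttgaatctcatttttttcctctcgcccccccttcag
Relative to the gene's start, the E-box began at -146 in Aars, -69 in Iars and -64 in Eif4e, and the composite element at -113 in Aars, 6 in Iars and -31 in Gars. RefSeq promoters (250 bases before to 50 after the start) were at hand for 42 of the 57 genes, 55 promoters in all. An E-box lay in 25.45% of the 55 and in 7.15% of all 32851 promoters in the table, and it belonged to 12 genes: Aars, Eif1b, Eif3a, Eif3f, Eif3k, Eif4a1, Eif4e, Eif4h, Eif5a, Farsb, Iars and Tars. TGATGNAAT lay in 5.45% against 0.96%, in Aars, Gars and Iars. The GC box GGGCGG lay in 69.09% against 35.66%, the STAT motif TTCNNNGAA in 9.09% against 8.30%, and the THAP11/ZNF143 motif in 3.64% against 0.95%. Both strands were searched and no motif overlapped another in the stretches shown. Among the 12 genes with an E-box, 8 were higher and 1 lower at 4-8 h in the ctrl arm (median 0.48), and among the 29 tested genes with a promoter but no E-box, 23 were higher and 2 lower (median 0.58). In the IL27 arm the counts were 10 and 1 of 12 (median 0.53), and 23 and 3 of 29 (median 0.59). For all genes tested the shares were 29.9% higher and 29.6% lower in the ctrl arm, and 33.2% and 27.4% in the IL27 arm. A match of letters is a description of the window and was not tested for binding.

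Eif2d, a subunit of neither eIF2 nor eIF2B, is counted with their genes here and below. Of the eIF2 and eIF2B genes, 6 of 7 rose between 0.5-2 h and 4-8 h in both arms, the exception being Eif2b2 (0.11 in the IL27 arm, 0.04 in the ctrl arm). Eif2b1, the alpha subunit of eIF2B, had 234, 421 and 339.6 units at 4-8 h in the IL27 arm, against 173, 188, 161 and 178 at 0.5-2 h. Ctrl arrays had 218, 438 and 402, against 160.2, 180.1, 175 and 143. All 4-8 h arrays were above all 0.5-2 h arrays, with differences of 0.78 ± 0.17 and 0.92 ± 0.17 (limma adjusted p = 8.5e-05 and 7.3e-06). Over the step 33.2% of all genes rose in the IL27 arm and 29.9% in the ctrl arm.

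The kinases of eIF2 split. Eif2ak3 encodes PERK, which senses misfolded protein in the endoplasmic reticulum, and it had the largest fall of all 56 genes. It had 92.9, 53.4 and 80.9 units at 4-8 h in the IL27 arm, against 615, 1162, 418 and 159 at 0.5-2 h, and 101, 62.1 and 74.7 in the ctrl arm, against 612, 1269.9, 659 and 341. Its highest array in both arms was that at 1 h, and it fell, with log2 differences of -2.25 ± 0.30 in the IL27 arm and -2.63 ± 0.30 in the ctrl arm (limma adjusted p = 2.9e-08 and 1.1e-09). Eif2ak4 encodes GCN2, which senses uncharged tRNA. It was dim, with 65.1, 70.0 and 75.1 units at 4-8 h in the IL27 arm, against 54.1, 42.5, 49.0 and 62.1, and it rose by 0.29 ± 0.11. On ctrl arrays it had 63.1, 90.0 and 62.6 units, against 42.2, 45.9, 40.6 and 42.7, a rise of 0.46 ± 0.11 (limma adjusted p = 0.02 in the IL27 arm and 0.0003 in the ctrl arm). Eif2ak1, the heme-regulated kinase, rose by 0.28 ± 0.11 in the IL27 arm and 0.27 ± 0.11 in the ctrl arm. These small rises did not hold throughout: without the 0.5 h array Eif2ak1 was at 0.25 in the IL27 arm and 0.17 in the ctrl arm (limma adjusted p = 0.077 and 0.21), and without the 1 h array Eif2ak4 was at 0.23 in the IL27 arm (limma adjusted p = 0.081).

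Of the 11 eIF3 genes, 7 rose and 2 fell in both arms. Eif3b, a subunit that binds RNA, had the largest rise, with 1742, 2172 and 2103 units at 4-8 h in the IL27 arm, against 782, 742, 853 and 1257 at 0.5-2 h. The ctrl arm had 2335, 2093 and 2023, against 919.5, 769, 939 and 1254, and both differences were 1.14 ± 0.16. The subunits that fell were Eif3f (-0.37 ± 0.07 in the IL27 arm, -0.24 ± 0.07 in the ctrl arm) and Eif3h, the subunits with an MPN domain. Eif3h had 3231, 2759 and 2919 units at 4-8 h in the IL27 arm, against 3712, 3814, 3574 and 3362. The ctrl arm had 2803, 3269 and 2859.5, against 3892, 3913, 3838 and 3409. Its stages did not overlap, but the differences were small, -0.28 ± 0.07 in the IL27 arm and -0.34 ± 0.07 in the ctrl arm (limma adjusted p = 0.0011 and 0.00015). Over this step 33.2% of all genes were higher and 27.4% lower in the IL27 arm, and 29.9% and 29.6% in the ctrl arm.

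In the eIF4 group the paralogs of the cap-binding protein went opposite ways. Eif4e, the main cap-binding protein, had 3907, 4512 and 3506 units at 4-8 h in the IL27 arm, against 936, 1399, 1931 and 2737 at 0.5-2 h. In ctrl cells it had 2880.5, 3939 and 3277, against 810.2, 1362, 1826 and 2221. The level was already higher at 2 h than at 0.5 h, and the differences were 1.27 ± 0.22 and 1.18 ± 0.22 (limma adjusted p = 3.1e-06 and 1e-05). Eif4e3, a paralog of Eif4e that also binds the cap, had 143, 40.8 and 105 units at 4-8 h in the IL27 arm, against 167, 223, 348 and 316. Ctrl arrays had 97.6, 43.0 and 70.0, against 187, 219.6, 385 and 272. It fell, with log2 differences of -1.25 ± 0.32 in the IL27 arm and -1.54 ± 0.32 in the ctrl arm (limma adjusted p = 0.00092 and 7.8e-05). Of the 8 genes in the group, 5 rose and 1 fell in the IL27 arm, and 4 rose and 1 fell in the ctrl arm. For all genes the shares were 33.2% higher and 27.4% lower in the IL27 arm, and 29.9% and 29.6% in the ctrl arm.

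The inhibitors of eIF4E differed among themselves as well. Eif4ebp1 had 153, 419 and 343 units at 4-8 h in the IL27 arm, against 95.3, 88.0, 75.6 and 92.3, and 140.0, 434 and 306 in the ctrl arm, against 109.7, 75.1, 135 and 116. The 4 h array was the lowest of its stage in each arm, and the rises were 1.40 ± 0.23 and 1.11 ± 0.23. Eif4ebp2 had 782, 789 and 839 units at 4-8 h in the IL27 arm, against 914, 1117, 1105 and 1061, and 810.5, 844 and 890.3 in the ctrl arm, against 1036, 1065, 1158 and 988. It fell, with log2 differences of -0.37 ± 0.08 in the IL27 arm and -0.31 ± 0.08 in the ctrl arm, with no overlap (limma adjusted p = 0.00025 and 0.0016). Of the 6 scanning and subunit-joining factors, 5 rose in the IL27 arm and 4 in the ctrl arm. Eif6, which keeps free large subunits from joining, had 2340.3, 3046 and 2804 units at 4-8 h in the IL27 arm, against 696, 785, 1579.8 and 1928. On ctrl arrays it had 2366, 2929 and 2944, against 658, 724, 1534 and 1880.4, and the differences were 1.23 ± 0.25 and 1.31 ± 0.25. Over the same step the 5 CD4 T cell markers fell, 5 of 5 in both arms, and the part of that in these rises was not tested. Shares of all genes were 33.2% higher and 27.4% lower in the IL27 arm, and 29.9% and 29.6% in the ctrl arm.

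**Figure D2:**
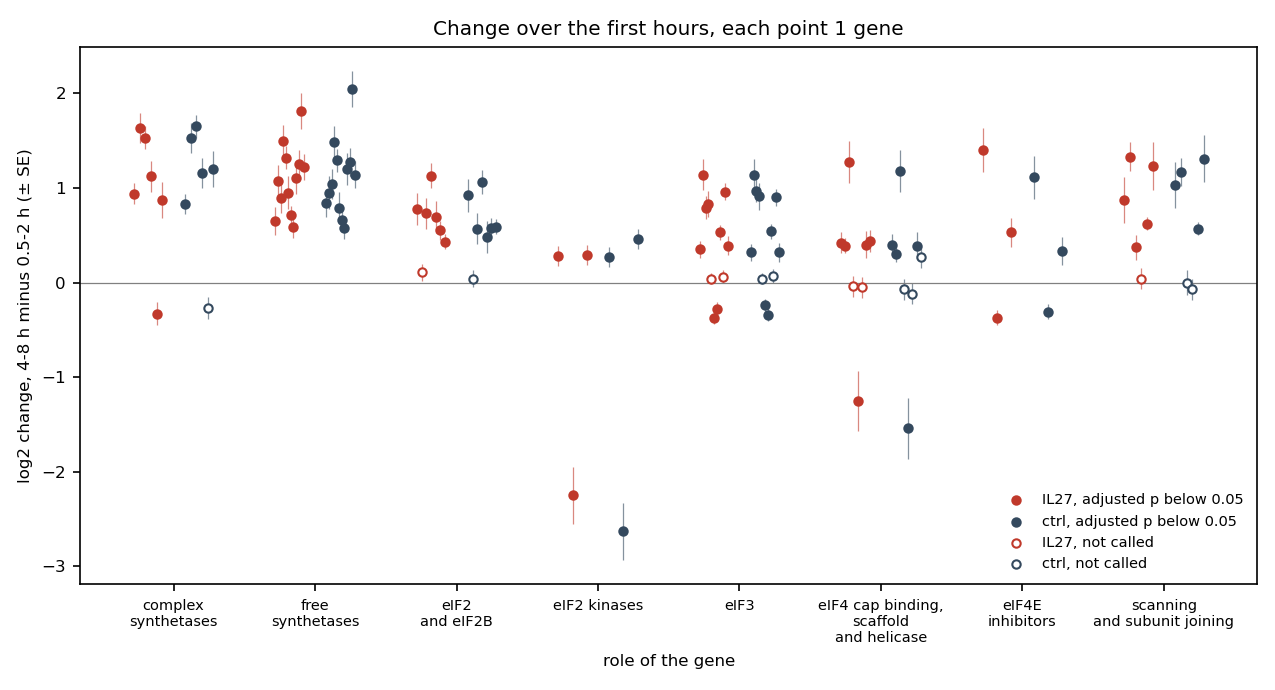
Log2 difference between 4-8 h and 0.5-2 h for each of the 56 genes, by role, in the IL27 arm (red) and the ctrl arm (blue), with bars for the standard error; filled points passed the test and open points did not. All 12 free synthetases lie between 0.58 and 2.04, and Eif2ak3 and Eif4e3 are the lowest points.

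A resting baseline exists on Mouse430A_2 only, with 1 array per time, so the comparison has no replicate check. In ctrl cells, 22 of 56 genes were at least 2-fold higher at 4 h than at 0 h and 1 was at least 2-fold lower, where 17.3% of all genes were 2-fold higher and 16.8% lower. At 16 h the counts were 25 and 1 (17.5% and 17.4% of all genes), and at 48 h 25 and 0 (17.8% and 16.1%). The median ratio over the 56 genes was 1.72 at 4 h, 1.84 at 16 h and 1.94 at 48 h, against 1.04, 1.00 and 1.00 over all genes. Eif4e had 588.5 units at 0 h, 3816.8 at 4 h, 3603.3 at 16 h and 3098.5 at 48 h, a ratio of 6.20 at 4 h on the intensity + 32 scale. Cars, for cysteine, had a ratio of 3.91 at 4 h, and Eif1a, which helps the small subunit scan, one of 4.72. Eif4e3 had 1196.1 units at 0 h, 304.9 at 4 h, 269.2 at 16 h and 1144.2 at 48 h, so resting cells had as much of it as cells at 48 h. Eif2ak3 had 236.0 units at 0 h and 194.0 at 4 h on these arrays, a smaller difference than that from the peak at 1 h on HT_MG-430A.

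Between 4-8 h and 14-20 h fewer genes moved. In the IL27 arm 12 rose and 1 fell, against 19.9% higher and 17% lower among all genes (36.9% called). In the ctrl arm 18 rose and 1 fell, against 25.2% higher and 17% lower (42.2% called). These counts lean on the 4 h arrays: they were 7 without the 4 h array of the IL27 arm and 4 without that of the ctrl arm. Without the 4 h array of the IL27 arm the share of all genes called fell too, to 17.2%. Of the eIF2 and eIF2B genes, 5 of 7 were higher in each arm, but Eif2b2 and Eif2b4 lost the call without the 4 h array of the IL27 arm, and Eif2b1, Eif2b2, Eif2b4 and Eif2s3x without that of the ctrl arm. Eif2d, a factor that can deliver initiator tRNA without eIF2, had a lowest, median and highest value of 565.5, 625.9 and 724.4 units at 14-20 h in the IL27 arm, against 270.4, 455 and 389 at 4-8 h. In the ctrl arm these were 594.6, 697.4 and 721.4 at 14-20 h, against 274, 523 and 320.1. The groups did not overlap, and the differences were 0.73 ± 0.16 and 0.86 ± 0.16 (limma adjusted p = 0.00037 and 3.3e-05). Eif2b1 had 513.7, 571.0 and 637.4 as the lowest, median and highest at 14-20 h in the IL27 arm and 511.8, 548.4 and 585.4 in the ctrl arm, all above the 4-8 h arrays. It rose by 0.77 ± 0.15 in the IL27 arm and 0.64 ± 0.15 in the ctrl arm, where it was 0.36 without the 4 h array (limma adjusted p = 0.09). Eif4enif1, which encodes 4E-T, a protein that carries eIF4E to the nucleus and to P-bodies, rose by 0.82 ± 0.14 in the IL27 arm and by 0.53 ± 0.14 in the ctrl arm. Eif4ebp1 differed by 0.58 ± 0.21 and 0.64 ± 0.21, calls that rest on the 4 h arrays, since without them the differences were 0.19 (limma adjusted p = 0.61) in the IL27 arm and 0.24 (limma adjusted p = 0.46) in the ctrl arm. Eif4g3, a scaffold paralog of eIF4G, fell: it spanned 661.3 to 852.4 units at 14-20 h in the IL27 arm, against 1036, 1048 and 1154 at 4-8 h. In the ctrl arm it spanned 689.6 to 837.7, against 1374, 1050.4 and 972, and the differences were -0.52 ± 0.13 and -0.55 ± 0.13 (-0.42 in the IL27 arm without the arrays of suffix d, limma adjusted p = 0.063).

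After 20 h the families parted. A comparison of 42-54 h with 14-20 h, chosen after the values had been seen, had 9 of 18 synthetases higher and 4 lower in each arm, with medians of 0.24 in the IL27 arm and 0.23 in the ctrl arm. The initiation factors had 6 higher and 22 lower of 38 in the IL27 arm (median -0.21), and 7 and 17 in the ctrl arm (median -0.19). Among all genes, 56.9% were called in the IL27 arm (27.3% higher, 29.6% lower) and 50.6% in the ctrl arm (23.9% and 26.7%). Scaling each array to a common median shifted the median of all genes to -0.13 in the IL27 arm and -0.11 in the ctrl arm, where it had been -0.02 in both. With that scaling 13 of the 56 genes were higher and 31 lower in the IL27 arm, beside 15 and 26 without it, and 11 were higher and 26 lower in the ctrl arm, beside 16 and 21. The single time with the highest mean lay in the stage 42-54 h for 10 of 18 synthetases in the IL27 arm and 12 in the ctrl arm. Of 38 initiation factors 4 in each arm had their highest time there, while 18 in the IL27 arm and 12 in the ctrl arm had it within 14-20 h. Between the time of the highest mean and that of the lowest, many of them single arrays, the ratio had a median over the 56 genes of 2.98 in the IL27 arm and 2.84 in the ctrl arm.

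**Figure D3:**
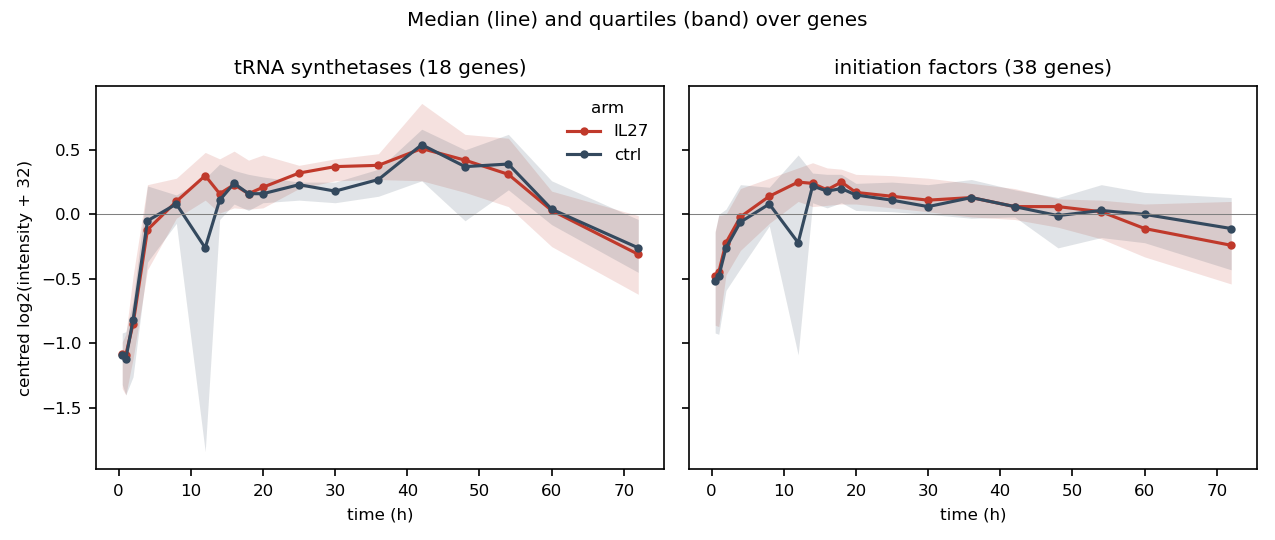
Median over the 18 synthetases and over the 38 initiation factors of log2(intensity + 32), centred on each gene's mean, by time in h, with the IL27 arm beside the ctrl arm and shading from the first to the third quartile. The synthetase median is -1.08 at 0.5 h and 0.51 at 42 h in the IL27 arm, and -1.09 and 0.54 in the ctrl arm. That of the initiation factors is highest at 12 h and 18 h in the IL27 arm (0.25 at each) and at 14 h in the ctrl arm (0.22).

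The synthetases that rose late were led by Sars and Cars. Sars had 2317, 2872, 2392, 2287 and 2925 units at 42-54 h in the IL27 arm, against a lowest, median and highest of 1100.8, 1196.4 and 1333.6 at 14-20 h. The ctrl arm had 2150.1, 2334, 2678, 2442 and 2797, against 1096.3, 1217.1 and 1336.1. The stages were far apart in both arms, with rises of 1.05 ± 0.10 and 0.99 ± 0.10 (limma adjusted p = 7.4e-12 and 5.1e-11). Cars had 494, 627, 456, 402 and 525 units at 42-54 h in the IL27 arm, against 241.1 to 270.7 at 14-20 h. In ctrl cells it had 494, 569, 479, 485 and 479, against 189.8 to 261.9, and the rises were 0.89 ± 0.14 and 1.00 ± 0.14. Yars, for tyrosine, rose by 0.69 ± 0.11 in the IL27 arm and 0.79 ± 0.11 in the ctrl arm. Aars, for alanine, rose by 0.61 ± 0.12 and 0.45 ± 0.12, and Gars, for glycine, by 0.57 ± 0.10 and 0.59 ± 0.10. Lars, Nars and Qars rose as well in both arms, though in the ctrl arm Qars did not pass with the mean of its probe sets (0.03, limma adjusted p = 0.67) or with arrays scaled to a common median (0.12, limma adjusted p = 0.25). The 4 that fell in both arms were Wars (-0.57 and -0.56), Kars (-0.61 and -0.42), Rars (-0.59 and -0.50) and Farsa (-0.60 and -0.33), with the IL27 arm given first in each pair. The call of Farsa in the ctrl arm was lost without the 48 h array (-0.25, limma adjusted p = 0.12). Aars and Gars hold the composite element shown above, Iars holds it too, and Iars differed by 0.04 in the IL27 arm and 0.23 in the ctrl arm without passing.

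Targets of ATF4, the transcription factor made when eIF2 is phosphorylated, were counted from a list outside the families. Of 12 tested, 10 rose and 1 fell in the IL27 arm between 14-20 h and 42-54 h (median 0.88), and 11 rose and 1 fell in the ctrl arm (median 0.90). Asns, which makes asparagine, rose by 3.78 in the IL27 arm and 4.13 in the ctrl arm, and Trib3, a pseudokinase, by 2.95 and 2.51. Of 8 mitochondrial synthetase genes tested, 0 rose and 1 fell in the IL27 arm and 0 of 8 changed in the ctrl arm over this step, by limma. Over the same step 56.9% of all genes were called in the IL27 arm and 50.6% in the ctrl arm.

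Eif4ebp1 encodes 4E-BP1, which holds eIF4E away from eIF4G, and between 14-20 h and 42-54 h it had the largest rise of the 56 genes in the ctrl arm and the largest after Eif4e3 (2.45) in the IL27 arm. On IL27 arrays it had 2358, 2849, 2441, 2224 and 2679 units at 42-54 h, against 396.3, 446.7 and 457.7 as the lowest, median and highest at 14-20 h. Ctrl arrays had 1976, 2601, 2710.3, 1922 and 2426, against 390.8, 446.2 and 471.0. The rises were 2.43 ± 0.18 and 2.32 ± 0.18 (limma adjusted p = 1.5e-14 and 8e-14).

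By 60-72 h most of the genes were below their level at 14-20 h. In the IL27 arm 10 rose and 34 fell (median -0.44), against 32.8% higher and 34% lower among all genes (66.8% called). In the ctrl arm 9 rose and 31 fell (median -0.29), against 28.7% higher and 30.3% lower (59% called). Scaled to a common median, where the median of all genes was -0.15 in the IL27 arm and -0.13 in the ctrl arm, 8 rose and 42 fell in the IL27 arm and 7 rose and 36 fell in the ctrl arm. Synthetases had 2 higher and 11 lower in the IL27 arm, and 2 and 10 in the ctrl arm. Sars and Qars were the ones that stayed higher: Sars by 1.03 ± 0.11 in the IL27 arm and 0.78 ± 0.11 in the ctrl arm, and Qars by 0.50 ± 0.11 and 0.27 ± 0.11. The call of Qars in the ctrl arm was lost under several alternatives, among them arrays scaled to a common median (0.13, limma adjusted p = 0.3), the mean of its probe sets (0.10, limma adjusted p = 0.2) and the fit without the 72 h array that has no suffix d (0.13, limma adjusted p = 0.42). Sars had 2612, 2170.2 and 2763 units at 60-72 h in the IL27 arm and 2251, 2363 and 1811 in the ctrl arm, all above its 14-20 h arrays. Wars had 279, 197 and 145 units at 60-72 h in the IL27 arm, against 484.8 to 606.7 at 14-20 h, and 301, 214 and 182 in the ctrl arm, against 415.7 to 552.3. It fell, with log2 differences of -1.32 ± 0.18 in the IL27 arm and -0.94 ± 0.18 in the ctrl arm.

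The falls among initiation factors at 60-72 h reached across the roles, and the group of scanning and subunit-joining factors had 5 of 6 lower and 0 higher in each arm. Lower genes made up 34% of all genes in the IL27 arm and 30.3% in the ctrl arm. Eif6 had 1299, 1067 and 742 units at 60-72 h in the IL27 arm, against 2612.1, 2957.8 and 3320.5 as the lowest, median and highest at 14-20 h. On ctrl arrays it had 1296, 868 and 1172, against 2517.1, 2729.2 and 3090.8. It fell, with log2 differences of -1.51 ± 0.23 in the IL27 arm and -1.30 ± 0.23 in the ctrl arm (limma adjusted p = 2.4e-07 and 5.3e-06). Eif5, which makes eIF2 hydrolyse its GTP at the start codon, had 1644, 1375 and 1476 units in the IL27 arm, against 2660.3, 2979.2 and 3506.1. The ctrl arm had 1639.6, 1337 and 1145, against 2532.2, 3038.1 and 3166.3, with no overlap of the stages. It fell by 1.00 ± 0.10 on the log2 scale in the IL27 arm and fell by 1.09 ± 0.10 in the ctrl arm. Eif3b had 741, 780.4 and 565 units at 60-72 h in the IL27 arm, against 1807.1 to 2039.1, and 929, 677 and 874 in the ctrl arm, against 1761.0 to 2498.5. It fell, with log2 differences of -1.45 ± 0.15 in the IL27 arm and -1.25 ± 0.15 in the ctrl arm. Eif4g2, a paralog of eIF4G that does not bind the cap protein, had 2556, 2473 and 2119 units in the IL27 arm, against 5086.1 to 5620.1, and 3107, 2037 and 2606 in the ctrl arm, against 4894.5 to 5129.7. It fell, with log2 differences of -1.15 ± 0.10 in the IL27 arm and -0.97 ± 0.10 in the ctrl arm.

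A few initiation genes ran against this. Eif4e3 had 851, 1059.6 and 748 units at 60-72 h in the IL27 arm, against 37.0, 57.3 and 77.8 as the lowest, median and highest at 14-20 h. In ctrl cells it had 665, 737 and 433, against 41.7, 53.0 and 103.2. It rose by 3.38 ± 0.30 in the IL27 arm and by 2.79 ± 0.30 in the ctrl arm (limma adjusted p = 7.1e-13 and 2.3e-10), the largest rise of the 56 genes in both. Eif4ebp1 had 2406, 1954 and 2319.8 units at 60-72 h in the IL27 arm and 1561, 1535 and 1266 in the ctrl arm, so the arms did not overlap there. It rose by 2.26 ± 0.21 and 1.66 ± 0.21 over 14-20 h. Eif2ak3 had 229, 265 and 277 units at 60-72 h in the IL27 arm and 221, 269.6 and 282 in the ctrl arm, and rose by 1.52 ± 0.28 and 1.43 ± 0.28. Eif2ak4 differed by 0.17 ± 0.10 in the IL27 arm (limma adjusted p = 0.13) and rose by 0.24 ± 0.10 in the ctrl arm (limma adjusted p = 0.035, but 0.13 with p = 0.25 when arrays were scaled to a common median), while Eif2ak1 differed by -0.71 ± 0.11 in the IL27 arm and -0.90 ± 0.11 in the ctrl arm. Eif3h and Eif3f, the eIF3 subunits that had fallen first, rose by 0.56 and 0.47 in the IL27 arm and by 0.46 and 0.38 in the ctrl arm. Of the 5 CD4 T cell markers, 5 were higher at 60-72 h in the IL27 arm and 3 in the ctrl arm, and the part of that in these changes was not tested. Higher genes made up 32.8% of all genes in the IL27 arm and 28.7% in the ctrl arm.

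The other steps of translation were counted in lists of genes outside the families. The exception is Eif5a, which stands in the elongation list and is also counted above among the scanning and subunit-joining factors. Of 8 elongation and termination genes tested, 5 rose and 1 fell at 4-8 h in the IL27 arm, and 5 and 2 in the ctrl arm. At 60-72 h, 2 rose and 5 fell in the IL27 arm, and 1 and 5 in the ctrl arm, Abce1, the ribosome recycling factor, by -1.46 in the IL27 arm and -0.98 in the ctrl arm. Of 8 mitochondrial synthetases tested, 4 rose and 1 fell at 4-8 h in the IL27 arm and 3 rose and 0 fell in the ctrl arm. Between 4-8 h and 14-20 h, 5 of the 8 rose in the IL27 arm and 7 in the ctrl arm. Of 14 genes for the control of translation, 6 rose and 5 fell at 4-8 h in each arm, and Ddit4, a brake on mTORC1, rose by 3.91 in the IL27 arm and 3.03 in the ctrl arm at 60-72 h. Among all genes, 60.6% were called at 4-8 h in the IL27 arm and 59.5% in the ctrl arm. At 14-20 h these shares were 36.9% (19.9% higher) and 42.2% (25.2% higher), and at 60-72 h they were 66.8% and 59%.

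**Figure D4:**
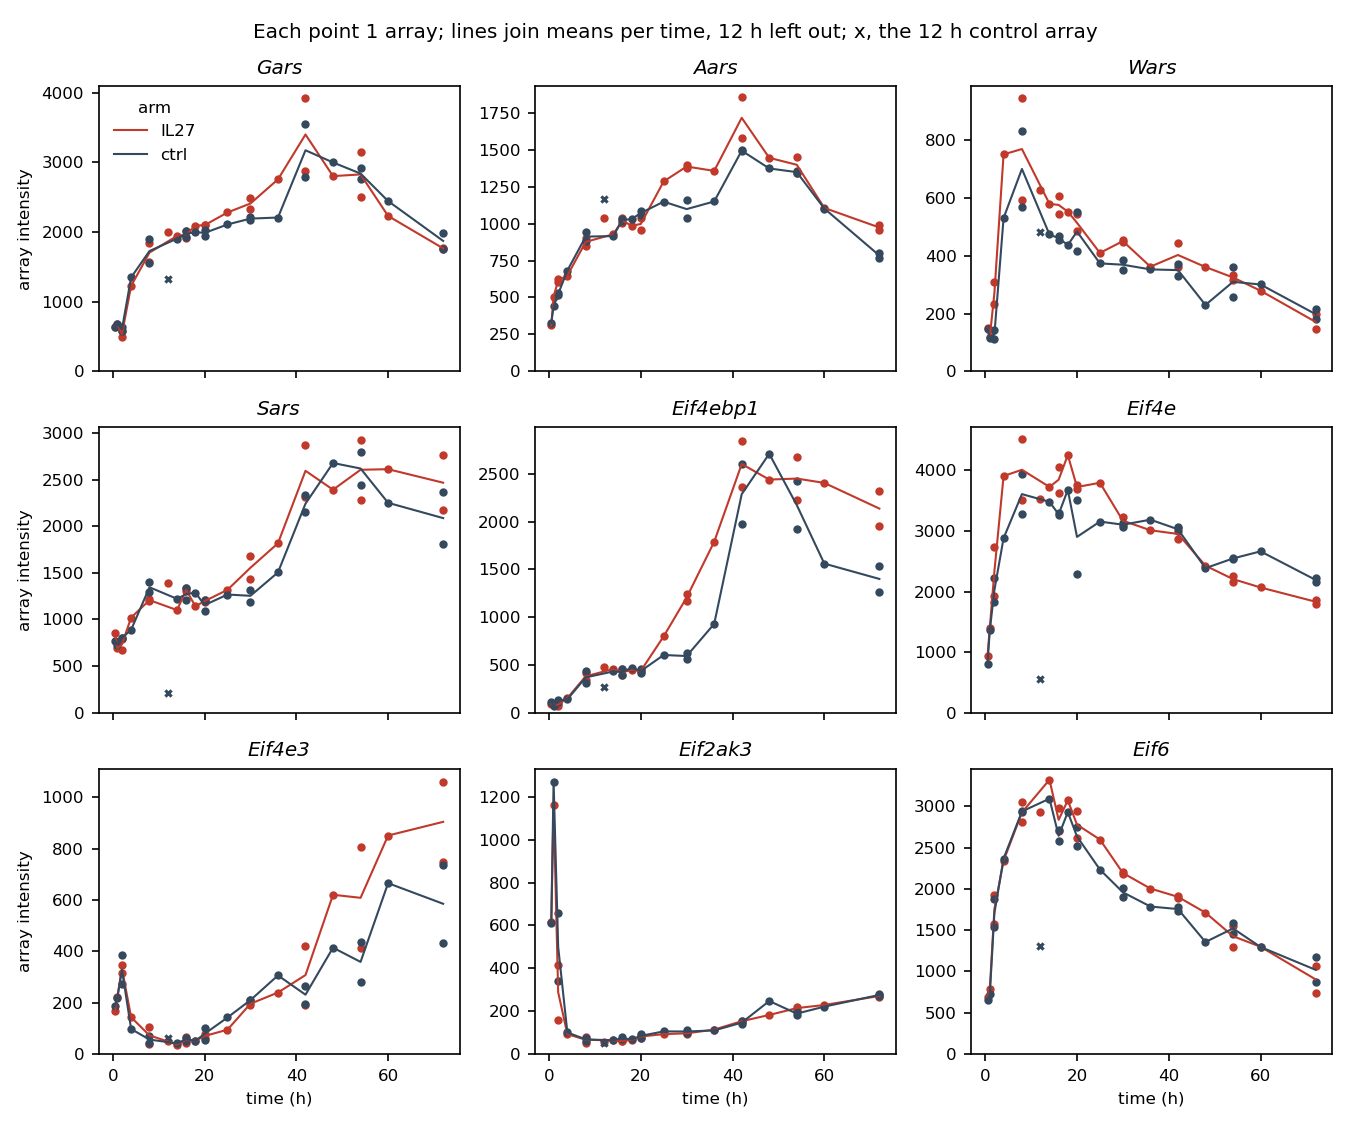
Array intensity (linear axis) against time in h for 9 of the genes, in the IL27 arm (red) and the ctrl arm (blue); each point is 1 array, lines join the means of a time without 12 h, and a cross marks the 12 h ctrl array. Eif4ebp1 climbs after 20 h, earlier in the IL27 arm, Wars peaks between 4 h and 8 h, and Eif2ak3 and Eif4e3 are lowest between 8 h and 20 h.

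Against these courses the differences between the arms were small. The IL-27 effect was fitted at matched times in 3 windows, early (0.5 to 4 h, 5 arrays per arm), middle (8 to 20 h, 9 per arm) and late (25 to 72 h, 12 per arm). Early, 0 of 56 genes passed by limma, where 2.33% of all genes were called, 1.8% higher and 0.53% lower (6 of the 56 had an unadjusted p under 0.05, as did 11.2% of all genes). In the middle window 4 were higher and 1 lower in the IL27 arm, where 10.7% of all genes were called, 4.83% higher and 5.86% lower. Late, 3 were higher and 0 lower, where 18.5% were called, 8.78% higher and 9.76% lower. The median effect over the 56 genes was 0.00 early, 0.11 in the middle window and -0.00 late. Without the 12 h ctrl array the median of the middle window was 0.02. Cell markers differed between the arms as well. Of 5 CD4 T cell markers tested, 2 were lower in the IL27 arm and 0 higher early (median -0.19). The middle window, with the 12 h ctrl array, had the same counts (median -0.22), and late 1 was higher and 1 lower. Cd8b1, the 1 CD8 marker tested, was lower in the middle window (-0.58) and late (-0.62). The part of that in the effects on the 56 genes was not tested. On the 6 matched Mouse430A_2 arrays, limma called 0 of 56 genes and 0% of all genes (with an unadjusted p under 0.05 for 0 of the 56 and 7.63% of all genes).

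Wars came nearest to a call in the early window. It had 151, 118, 234, 308 and 751 units in the IL27 arm from 0.5 to 4 h, against 148, 115, 111, 145 and 531 in the ctrl arm. The arms were alike at 0.5 and 1 h and apart at 2 h, where the log2 effect was 0.92. The effect over the window was 0.47 ± 0.14 (limma adjusted p = 0.056), and the IL27 arm was higher at 4 of 4 times. It passed when the 12 h ctrl array, which belongs to another window but enters the estimate of the spread, was left out (0.47, limma adjusted p = 0.042). The other 3 probe sets of Wars had early effects of 0.34, 0.20 and 0.24. In the middle window the effect was 0.22 ± 0.10 (0.20 ± 0.11 without the 12 h ctrl array) and late 0.11 ± 0.09, neither passing, and on Mouse430A_2 the 4 h values were 1384.7 in the IL27 arm and 1405.3 in the ctrl arm.

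In the middle window Eif4enif1 had the clearest effect. Its lowest, median and highest values were 446.0, 721.3 and 978.1 units in the IL27 arm, against 369.9, 532.3 and 738.9 in the ctrl arm (n = 9 each). The arms overlapped across the window, but the IL27 arm was higher at 6 of 6 times, with an effect of 0.43 ± 0.09 (limma adjusted p = 0.0014) and of 0.45 ± 0.10 without the 12 h ctrl array. The effects by time were 0.34 at 8 h, 0.28 at 12 h, 0.45 at 14 h, 0.57 at 16 h, 0.71 at 18 h and 0.30 at 20 h. Later they were 0.36 at 25 h, 0.31 at 30 h, -0.01 at 36 h, -0.05 at 42 h, -0.05 at 48 h, -0.48 at 54 h, -0.60 at 60 h and -0.39 at 72 h. The late effect as a whole did not pass (-0.13 ± 0.08, limma adjusted p = 0.3), and a change of sign within the late window was not tested.

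Eif4e had 3506.5, 3727.2 and 4512.1 units as the lowest, median and highest in the middle window of the IL27 arm, against 561.7, 3288.5 and 3938.7 in the ctrl arm, where the lowest is the 12 h array. The IL27 arm was higher at 6 of 6 times. The effect was 0.49 ± 0.14 (limma adjusted p = 0.022), and 0.23 ± 0.07 (limma adjusted p = 0.048) without the 12 h ctrl array. The other probe sets of Eif4e had 0.16 and 0.01. Eif3e and Eif4g2 passed only with that array: Eif3e with 0.16 ± 0.05 (limma adjusted p = 0.046) and 0.08 ± 0.04 without it (limma adjusted p = 0.24), and Eif4g2 with 0.23 ± 0.08 (limma adjusted p = 0.049) and 0.10 ± 0.05 (limma adjusted p = 0.25). Eif3h was the gene that was lower, with 2753.0, 2963.9 and 3360.9 units in the IL27 arm, against 2859.5, 3268.7 and 3619.0 in the ctrl arm, lower at 6 of 6 times. Its effect was -0.12 ± 0.04 with that array and without it (limma adjusted p = 0.025 and 0.029), but it did not pass with the mean of its probe sets (-0.04, limma adjusted p = 0.31), with arrays scaled to a common median (-0.09, limma adjusted p = 0.1) or without the arrays of 14, 16, 18 or 20 h. With the mean of each gene's probe sets, 1 of the 5 calls, that of Eif4enif1, was kept. Without the 12 h ctrl array, 3 of the 56 genes were called in this window: Eif4enif1, Eif4e and Eif3h. Without the 20 h arrays of both arms, Eif4enif1 alone passed. The share of all genes called was 11.1% with the mean of probe sets, 8.13% without the 12 h ctrl array and 6.4% without the 20 h arrays. With all arrays and the brightest probe sets it was 10.7%. Eif6 (0.18 ± 0.08, and 0.06 ± 0.07 without the 12 h ctrl array), Eif2ak3 (-0.06 ± 0.11, and -0.07 ± 0.12) and Eif2ak4 (-0.15 ± 0.07, and -0.09 ± 0.07) did not pass with that array or without it.

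Late, Eif4ebp1 had the largest effect of the 56 genes. In the order 25, 30, 36, 42, 48, 54, 60 and 72 h, with both arrays where there were 2, it had 800.2, 1238 and 1175, 1789.7, 2358 and 2849, 2441, 2224 and 2679, 2406, and 1954 and 2319.8 units in the IL27 arm. The ctrl arm had 604, 621 and 566, 930.0, 1976 and 2601, 2710.3, 1922 and 2426, 1561, and 1535 and 1266. The IL27 arm was higher at 7 of 8 times, the exception being 48 h, and the gap was widest at 30 h (0.99 on the log2 scale) and 36 h (0.92). The mean was 2019.4 ± 644.1 units in the IL27 arm and 1559.9 ± 782.1 in the ctrl arm (SD, n = 12 each), and the effect at matched times was 0.47 ± 0.09 (limma adjusted p = 0.0002). The second probe set had 0.50. Early the effect was -0.15 ± 0.14, and the change between the windows, tested as a contrast, was 0.63 ± 0.17 (limma adjusted p = 0.018), the 1 call among the 56 genes where 7.09% of all genes were called, 3.48% higher and 3.62% lower. That call rests on the 2 h arrays: without them the change was 0.43 (limma adjusted p = 0.33). On Mouse430A_2 at 48 h the values were 4108.6 in the IL27 arm and 3839.5 in the ctrl arm.

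Aars had 958.5, 1367.6 and 1854.2 units as the lowest, median and highest late in the IL27 arm, against 767.5, 1154.0 and 1497.8 in the ctrl arm (n = 12 each). The IL27 arm was higher at 8 of 8 times, with an effect of 0.18 ± 0.04 (limma adjusted p = 0.0006), while its other probe set had 0.09 and the mean of its probe sets did not pass (0.14, limma adjusted p = 0.34), nor did the fit without the arrays of suffix d (0.14, limma adjusted p = 0.074). Eif2b2, the beta subunit of eIF2B, had 689.4, 759.9 and 971.2 units in the IL27 arm, against 570.7, 686.9 and 764.8 in the ctrl arm. It was higher in the IL27 arm at 7 of 8 times, with an effect of 0.19 ± 0.05 (limma adjusted p = 0.0049) in both of its brighter probe sets, and it did not pass without the 72 h arrays (0.15, limma adjusted p = 0.057) or without the arrays of suffix d (0.15, limma adjusted p = 0.14). Without the 12 h ctrl array, Qars (0.15, limma adjusted p = 0.034) and Sars (0.15, limma adjusted p = 0.042) also passed late. In that fit 23.6% of all genes were called late, beside 18.5% with the array. Late effects of Wars (0.11 ± 0.09), Eif4e (-0.09 ± 0.12), Eif6 (0.06 ± 0.07), Eif2ak3 (-0.02 ± 0.10) and Eif2ak4 (-0.10 ± 0.06) did not pass.

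**Figure D5:**
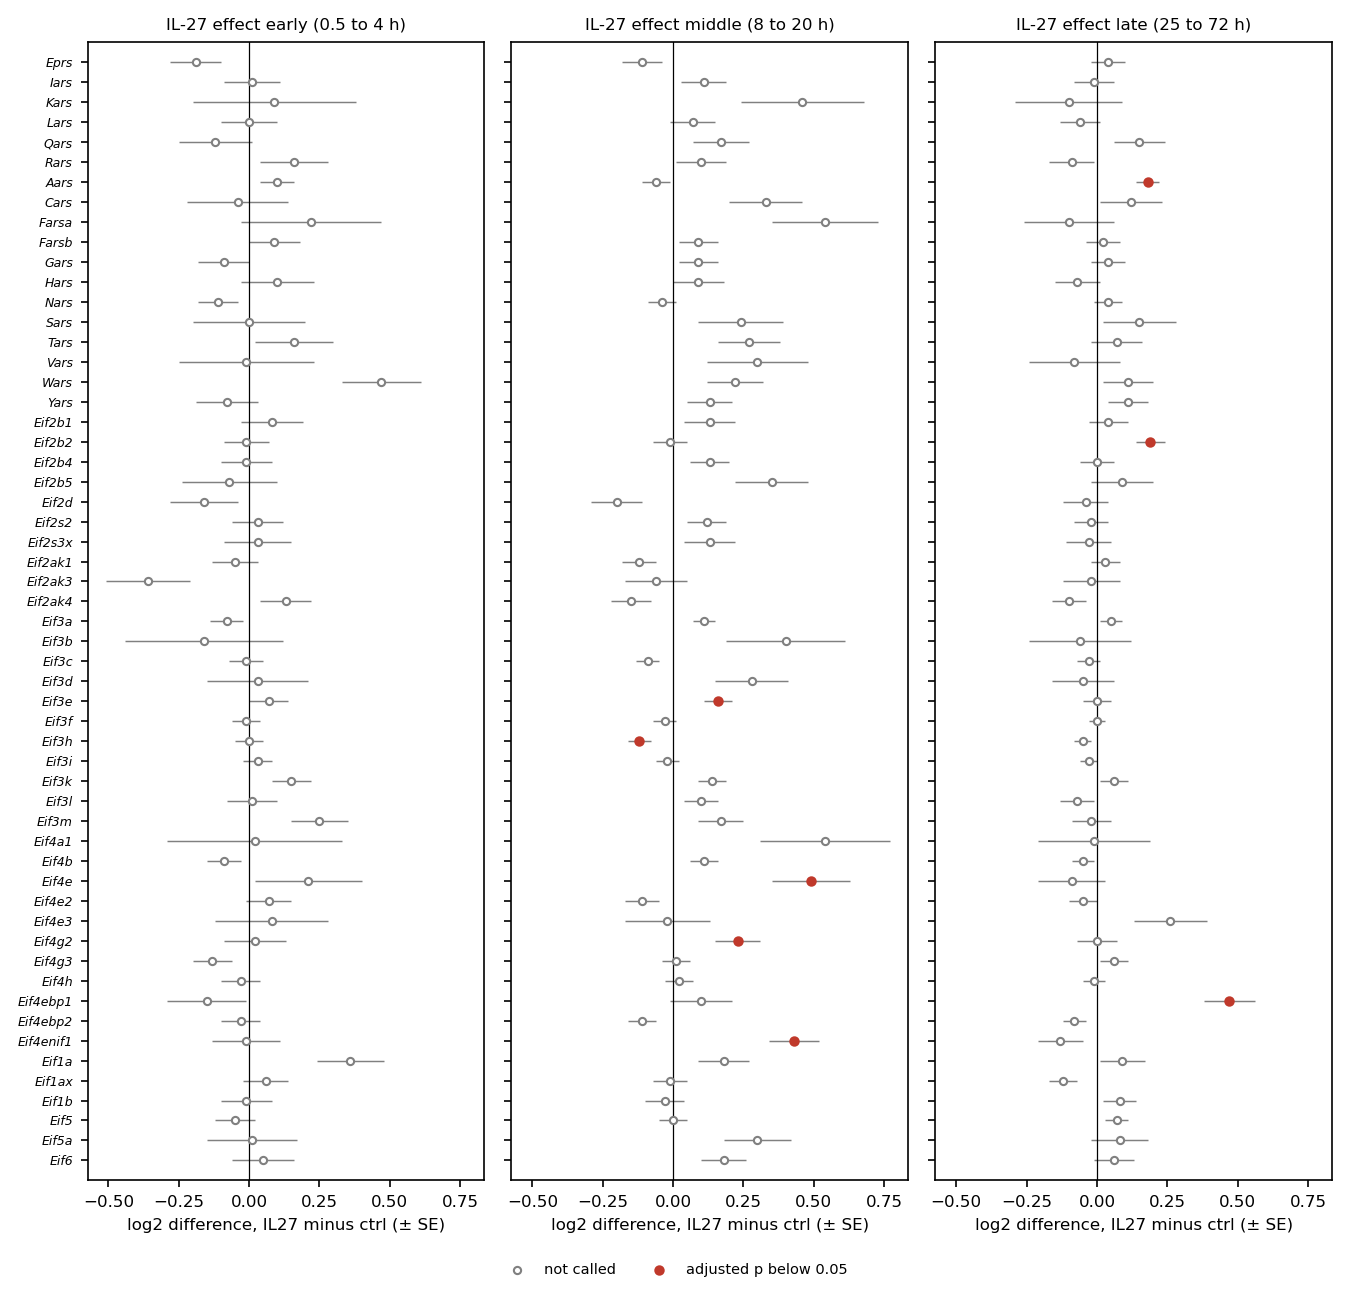
IL-27 effect, IL27 minus ctrl in log2(intensity + 32), with its standard error for each of the 56 genes in the early, middle and late windows; filled points passed the test. Eif4ebp1 is at -0.15 early and 0.47 late, and Eif4enif1 is at 0.43 in the middle window and -0.13 late.

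Outside the families, 5 of 12 ATF4 targets tested were higher late in the IL27 arm and 1 was lower: Ddit3 by 0.71, Trib3 by 0.59, Slc7a5 by 0.52, Atf5 by 0.45 and Slc3a2 by 0.40, with Phgdh at -0.35. Slc7a5 and Slc3a2 form the carrier that imports large neutral amino acids, and Phgdh starts serine synthesis. Of 14 genes for the control of translation, 2 were higher late (Ppp1r15a by 0.37 and Ddit4 by 0.39) and 2 lower (Denr, -0.30, and Pdcd4, -0.53). Of 8 mitochondrial synthetases, 0 were higher and 2 lower (Ears2, -0.16, and Rars2, -0.21), and of the 3 scaffolds of the synthetase complex Eef1e1 was lower (-0.27, limma adjusted p = 0.046). Beside these counts, 18.5% of all genes were called late, 8.78% higher and 9.76% lower.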

How the data were processed

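The deposited tables, one for each array type, hold the authors' intensities on a linear scale for 22626 probe sets. MAS5 is the tool named per the submitters' processing notes, and those sources give no version or settings. No normalization was added. Platform annotation gave 1 gene to 20173 probe sets, several to 942 and none to 1511, and the last 2 kinds were left out. Of the families, 57 genes had such a probe set.

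From the intensities, log2(intensity + 32) was tested with limma 3.58.1 (lmFit, eBayes with a trend) in R 4.3.3 over all genes above their array's median on 5 or more arrays (3 on Mouse430A_2). P-values were adjusted by Benjamini-Hochberg over all of them, and calls are at 0.05. One model fitted each time as a level plus 1 IL27 term per window, and the other a mean per arm and stage, with the 12 h arrays as a stage of their own. On simulated data, with 100 of the 7164 genes changed by each size, the late IL-27 effect recovered 93% of genes changed by 0.5 and 98% of those changed by 1 on the log2 scale, with 14 false calls. For 60-72 h against 14-20 h in the ctrl arm it was 58% and 89%, with 11 false calls.

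The genes and lists were chosen with earlier results of these data known. Per comparison, the genes described in detail are up to 6 called with the smallest adjusted p (IL-27 effects), the 4 largest rises and falls called (steps of the ctrl arm), and Wars, Eif4ebp1, Eif2ak3, Eif2ak4, Eif4e and Eif6. From the lists, the 2 to 4 with the smallest adjusted p are named. Other genes are given as examples of their role. Alternatives were another pseudocount, filter, scaling and choice of probe set, the arrays of suffix d, and leaving out arrays or times.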

Additional observations from a re-analysis of the deposited data

Results flagged for a closer look

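The IL-27 effect on Eif4ebp1 differed between the late and the early window by a test of the difference itself, with a change of 0.63 ± 0.17 on the log2 scale (limma adjusted p = 0.018). The effect was 0.47 ± 0.09 late, with the IL27 arm higher at 7 of 8 times, and -0.15 ± 0.14 early, with the IL27 arm higher at 2 of 4 times. Its second probe set gave a change of 0.68. Without the 2 h arrays the change was 0.43 (limma adjusted p = 0.33), and without the arrays of suffix d it was 0.57 (limma adjusted p = 0.15).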

How the results depend on the processing

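Of the 56 genes, 0 were called early, and 1 was when each array was scaled to a common median, when the mean of a gene's probe sets was used, and without the 12 h ctrl array. The share of all genes called early was 2.33%, and 2.46%, 2.62% and 3.32% in these fits, in that order. In the middle window 5 were called, against 3 without the filter on low values, 3 after quantile normalization, 3 without the 12 h ctrl array and 2 without the arrays of suffix d, and the mean of probe sets kept 1 of the 5. For all genes the share there was 10.7%, against 5.34%, 11.1%, 8.13% and 9.01% in the same order, and 11.1% with the mean of probe sets. Late, 3 were called, against 5 without the 12 h ctrl array and 1 without the arrays of suffix d, which also left 0 for the late minus early change and 8 for 14-20 h against 4-8 h in the IL27 arm, where there were 13. The cause was not tested, beyond the fewer arrays in such fits. Late, 18.5% of all genes were called, with 23.6% without the 12 h ctrl array and 12.9% without the arrays of suffix d. For 14-20 h against 4-8 h in the IL27 arm the share was 36.9%, and 25.2% without the arrays of suffix d. When each time of a window was left out in turn, the counts were 0 to 1 early, 1 to 5 in the middle window (1 without 20 h), 2 to 3 late and 0 to 1 for the change (0 without 2 h). Without 20 h, 6.4% of all genes were called in the middle window. When each array of the stages compared was left out in turn, the ctrl arm had 43 to 48 calls at 4-8 h, 4 to 24 at 14-20 h (4 without its 4 h array), 33 to 39 at 60-72 h and 33 to 38 at 42-54 h. The IL27 arm had 47 to 49, 7 to 19 (7 without its 4 h array), 42 to 45 and 38 to 41. Without that 4 h array 17.2% of all genes were called at 14-20 h, beside 36.9% with it. On Mouse430A_2 the count stayed at 0 with any 1 time left out, but these fits have so few arrays that a 0 says little. Of all genes, 1.46% were called there without 16 h, 3.4% without 48 h and 0% without 4 h. Over the 728 values of single genes (each tested gene in each comparison), 11850 alternative values kept the direction or stayed uncalled, 298 lost a call, 113 gained one and 3 turned. Those that turned did so with the mean of probe sets, and all are against 14-20 h. A call turned for Eif4e2 in the IL27 arm at 60-72 h, to -0.08. The others had not been called and were then called in the other direction: Eif4e2 in the IL27 arm at 42-54 h (-0.14) and Eif2s2 in the ctrl arm at 60-72 h (-0.18). Dim genes such as Eif2ak4 and Eif4e3 lie near array background at some times, which limits their differences. No paired analysis was possible because the labels carry no replicate numbers, apart from the time that matches the arms in the model and the suffix d, which both arms share at 8 times and whose meaning is not given; with it as a block the 5 calls of the middle window became 4.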

Other observations

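The arrays named GFPP and GFPN, 1 each at 48 h on Mouse430A_2, enter no comparison. Eif4e3 had 5190.4 units on GFPP and 4475.4 on GFPN, beside 2583.6 on the IL27 array and 1144.2 on the ctrl array of that time. Eif4e had 1697.9 on GFPP and 1821.7 on GFPN, beside 1983.4 on the IL27 array and 3098.5 on the ctrl array. Eif4ebp1 was alike on the 4 arrays, with 4443.1 on GFPP, 4237.6 on GFPN, 4108.6 on IL27 and 3839.5 on ctrl. Each value is a single array and none was tested.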
